A study of Mus musculus with 4 samples.

Results

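The H19-Igf2 and Kcnq1ot1 imprinted domains of mouse distal chromosome 7 were followed through 5 member genes, H19, Igf2, Kcnq1ot1, Cdkn1c and Phlda2, of 55413 genes annotated in GENCODE release M21. Every CpG in a member gene or within 5 kb upstream of its start was taken, which gave 1981 CpGs in the mm10 sequence. A methylation level was listed for 555 of them in R1 ESCs and for 666 in Tet/Tet ESCs. The number was 1021 in R1 neurons, called neurons below, and 514 were listed in all 3 libraries. Each comparison below used those shared CpGs unless another set is named.

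The study applied reduced representation bisulfite sequencing (RRBS), in which MspI-cut DNA is bisulfite converted and sequenced, so that most information comes from CpG-dense DNA. R1 is a wild-type mouse embryonic stem cell (ESC) line. Tet/Tet is a transgenic line made from R1 by knocking tet-off cassettes into both alleles of Dnmt1, downstream of the gene's own promoter; Dnmt1 encodes the maintenance DNA methyltransferase, which the study describes as overexpressed in these cells. Tet/Tet cells, and not R1 cells, were grown in puromycin at 1 µg/ml and neomycin at 150 µg/ml. Neurons were derived from ESCs through 2 days as embryoid bodies without LIF and 10 to 15 days in Ndiff227 medium. There was 1 library for each of the 4 conditions, so no difference below has a replicate check and no test was possible. The Tet/Tet neuron table as analysed here listed chromosome 7 only up to position 55762981, short of both domains, so that condition was not analysed here. The selection drugs go with the genotype, and R1 and Tet/Tet were each a single line, so drug, line and genotype cannot be told apart. The neuron libraries came from another sequencing project than the ESC libraries, so cell type and project cannot be told apart either. RNA was not measured here, so the identity of the neurons was not checked against markers.

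Imprinted genes are expressed from only the maternal or only the paternal copy. In the H19-Igf2 domain, the imprinting control region upstream of H19 is methylated on the paternal copy. On the unmethylated maternal copy CTCF binds it and insulates Igf2 from enhancers beyond H19, so that H19, a noncoding RNA, is made from the maternal copy and Igf2, a growth factor, from the paternal copy. In the neighbouring domain, the Kcnq1ot1 promoter is methylated on the maternal copy. The paternal copy makes the long antisense RNA Kcnq1ot1, which silences nearby genes in cis, among them Cdkn1c, a cyclin-dependent kinase inhibitor, and Phlda2, a regulator of placental growth. A bulk percentage does not separate parental copies from cells: an intermediate level can come from allele-specific methylation or from a mixture of cells.

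The sequences that carry the H19 results are 2 neighbouring MspI fragments of the control region and the fragment just before the H19 start. The control region fragments are printed with the cut site at each end, and so show the 4 CpGs of that region listed in all 3 libraries. Of these, 3 belong to the printed fragments, and that at chr7:142581386 is the cut site where the next fragment, of 814 bp, begins. They are written from the mm10 genome on the minus strand, which is the H19 strand, with CpGs in capitals.
H19 control region fragment 1, chr7:142581142-142581188: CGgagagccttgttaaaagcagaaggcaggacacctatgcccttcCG
H19 control region fragment 2, chr7:142581187-142581387: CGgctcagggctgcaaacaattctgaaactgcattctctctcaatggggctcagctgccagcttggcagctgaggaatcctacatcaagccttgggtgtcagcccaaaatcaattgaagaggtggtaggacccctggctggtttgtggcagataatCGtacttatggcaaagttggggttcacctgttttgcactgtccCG
H19 promoter fragment 1, chr7:142578165-142578243: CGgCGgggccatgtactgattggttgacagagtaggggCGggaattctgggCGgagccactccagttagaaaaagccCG

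The CTCF core was searched on both strands as CCGCG, any base, GG, any base and GGCAG in a row. It matched 3 times in the 5 kb upstream of H19, each time on the minus strand. These matches are shown with 20 bases on either side, and the core in capitals.
CTCF core 1, chr7:142580289-142580342: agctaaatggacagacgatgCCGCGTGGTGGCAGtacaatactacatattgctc
CTCF core 2, chr7:142580744-142580797: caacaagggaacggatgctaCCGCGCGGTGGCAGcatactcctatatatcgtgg
CTCF core 3, chr7:142582014-142582067: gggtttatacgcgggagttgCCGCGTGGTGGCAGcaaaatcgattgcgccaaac
At least 1 match was present upstream of 0.0415% of the 55413 annotated genes, and 3 matches upstream of only 2 of them, H19 and Mir675, a microRNA gene inside H19 that shares the stretch.

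At the 4 CpGs listed in all 3 libraries, the stretch upstream of H19 was more methylated in Tet/Tet ESCs than in R1 ESCs, and most methylated in R1 neurons. H19 (ENSMUSG00000000031.16, a lincRNA gene at chr7:142575529-142578143) has no other annotated gene in the 5 kb before its start. Of the 90 CpGs between 1 and 5 kb upstream, 4 were listed in all 3 libraries, between 2999 and 3243 bp from the start and within the 2 to 4 kb that the control region is usually given. At chr7:142581142 the level was 40.9% in R1 and 83.1% in Tet/Tet ESCs, and 91.9% in neurons. At chr7:142581187 it was 40.1%, 54.0% and 81.3% in the same order, and at chr7:142581230 it was 30.6%, 60.3% and 84.8%. The lowest of the 4, chr7:142581386, was at 6.90%, 23.1% and 80.6%. All 4 CpGs had the same order of the 3 libraries.

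Over these 4 CpGs the mean was 29.6% ± 15.9 (SD over CpGs) in R1 and 55.1% ± 24.7 in Tet/Tet ESCs, and 84.7% ± 5.17 in neurons. Tet/Tet ESCs were 25.5 percentage points above R1 ESCs (SD of the differences 13.1, range 13.9 to 42.1). R1 neurons were 55.0 points above R1 ESCs (SD 13.6, range 41.2 to 73.7). Over the 11764 upstream stretches of all genes with at least 5 shared CpGs, the median Tet/Tet difference was 0.389 points. The median neuron difference over them was 36.5 points. The H19 stretch, with 4 shared CpGs, is not among them. The mean of Tet/Tet ESCs was the nearest to 50%, the level of a region methylated on 1 of 2 copies in every cell, with R1 ESCs below and neurons above it. The single CpGs of Tet/Tet ESCs ranged from 23.1% to 83.1%, so that mean was not an even level across them. The 4 CpGs lie in 3 adjoining fragments, 2 of them in the same one, and are not independent of each other.

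The wider control region was visible only in R1 neurons, which listed 28 CpGs between 2 and 4 kb upstream, where the ESC libraries listed 4 (R1) and 5 (Tet/Tet). Their mean was 71.1% with a median of 95.9%, and the values lay at the ends of the scale: 14 CpGs were at 100% and 6 at 0%. The CpGs at 0% were 6 of the 7 nearest the gene, between 2420 and 2632 bp upstream, and the other of these 7 was at 100%. CTCF core 2 lies in that stretch, 2621 to 2634 bp upstream, and its 3 CpGs were listed at 100%, 0% and 0% in R1 neurons. Both CpGs of CTCF core 3 were at 100% in R1 neurons, and the CpGs of core 1 were not listed in any library. The ESC libraries listed no CpG in any core, so a comparison at the CTCF matches was not possible. The number of reads behind each percentage is unknown, and values of exactly 0% or 100% are also what a few reads give.

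**Figure D1:**
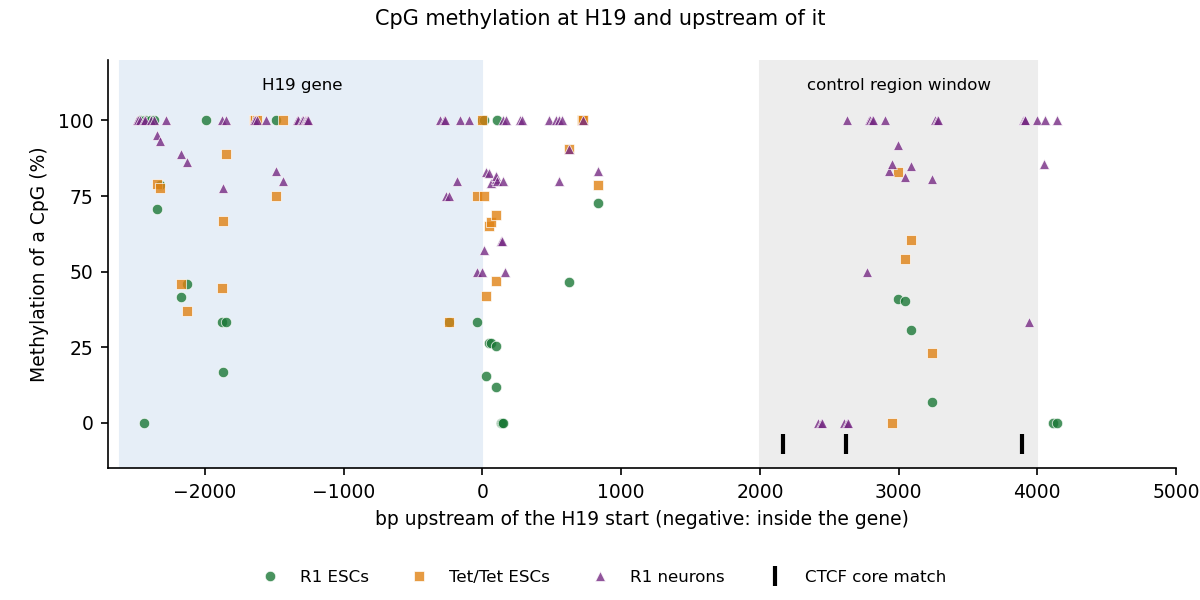
Methylation (%) of each listed CpG against its distance in bp upstream of the H19 start, with circles for R1 ESCs, squares for Tet/Tet ESCs and triangles for neurons, the gene and the 2 to 4 kb window shaded, and CTCF core matches as black ticks. The 4 CpGs near 3 kb stand in the same order of libraries, with R1 ESCs lowest and neurons highest. Neurons alone list CpGs in CTCF cores 2 and 3, and no library lists any in core 1.

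The H19 promoter, defined as 1000 bp before to 500 bp after the start, followed the same order. Its 11 shared CpGs averaged 44.6% ± 31.9 in R1 and 67.4% ± 20.2 in Tet/Tet ESCs, and 74.0% ± 14.5 in neurons. The clearest separation was in the 79-base stretch printed above, which begins 22 bp before the start. There, the CpG 48 bp upstream was at 26.5% in R1 and 65.2% in Tet/Tet ESCs, and 82.5% in neurons. The CpG 61 bp upstream was at 26.2%, 66.3% and 79.4%, and that 96 bp upstream at 25.4%, 68.7% and 80.8%. The CpG 99 bp upstream was the lowest in R1 ESCs, at 11.7%, against 46.8% and 81.7% in the other libraries. At each shared CpG of this stretch R1 ESCs were lowest and neurons highest.

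Not every promoter CpG of H19 followed this order. At the start itself the level was 100% in both ESC libraries and 50% in R1 neurons, and 8 bp upstream it was 100%, 75% and 57.1%. In Tet/Tet ESCs 8 CpGs were higher than in R1 ESCs, 1 was lower and 2 were equal, with a mean difference of 22.7 points (SD 23.6). In R1 neurons 9 were higher and 2 were lower, with a mean difference of 29.3 points (SD 41.8). A neuron difference at least as large was reached by 22.6% of 19584 promoters. With CpG islands left out the Tet/Tet difference was 2.92 points, over 2 CpGs. With each library's own listed CpGs it was 35.0 points.

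The H19 body also averaged higher in Tet/Tet ESCs, but on fewer and more scattered CpGs. Its 8 shared CpGs averaged 52.5% ± 27.9 in R1 and 64.3% ± 19.2 in Tet/Tet ESCs, and 90.6% ± 7.98 in neurons. Of these, 5 were higher and 3 were lower in Tet/Tet ESCs, with a mean difference of 11.8 points (SD 27.7). Over the 3 CpGs in MspI fragments of 40 to 220 bp, the size RRBS is aimed at, that difference was 3.91 points. In R1 neurons 7 of the 8 were higher than in R1 ESCs, and the mean difference over the 8 was 38.1 points. A neuron difference at least as large was reached by 43.4% of 21130 bodies.

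Against all genes, the H19 promoter stood near the top of the ESC comparison. A gene segment was counted as apart when its mean over at least 5 shared CpGs differed by at least 10 points. Of 19584 promoters that could be compared, 5.72% were at least 10 points higher in Tet/Tet ESCs and 2.24% at least 10 points lower. A difference as large as that of the H19 promoter was reached by 1.33% of them. Of the members, 3 promoters and 5 bodies had enough CpGs. Only the promoter of H19 passed upwards, and of the bodies H19 and Kcnq1ot1 did, beside 10.7% of 21130 bodies. No member passed downwards, beside 4.28% of bodies. The median difference over the 8 member segments was 0.049 points, and over all genes it was 0.254 points for promoters and 1.02 points for bodies. The 25.5 points upstream of H19 rest on 4 CpGs, fewer than the 5 asked for, and so are not among these counts.

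**Figure D2:**
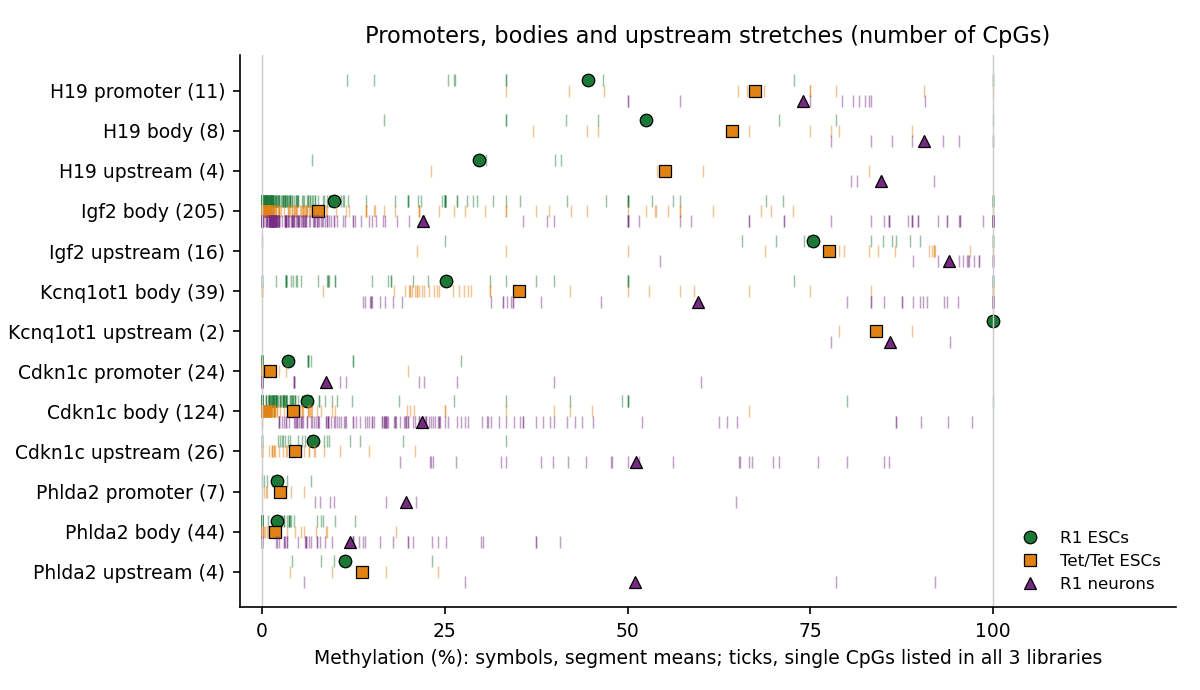
Mean methylation (%) of each member's promoter, body and upstream stretch (1 to 5 kb before the start) in each library, as large symbols, with single CpGs as ticks and the number of CpGs in brackets. The 3 libraries separate at H19, where R1 ESCs are lowest, while Igf2, Cdkn1c and Phlda2 bodies stay below 10% on average in both ESC libraries.

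Kcnq1ot1 (ENSMUSG00000101609.2, chr7:143203458-143296549) is an unspliced antisense RNA gene inside Kcnq1. Its promoter window held no CpG listed in all 3 libraries. R1 ESCs listed none there, Tet/Tet ESCs listed 5, all at 0%, and R1 neurons listed 17, of which 16 were at 0% and 1 was at 40%. The window is shown as the 300-base RefSeq promoter sequence (GRCm38.p6, minus strand), since the gene's start and the CCAAT boxes known from it lie there, with CCAAT in capitals.
Kcnq1ot1 promoter, chr7:143296498-143296797: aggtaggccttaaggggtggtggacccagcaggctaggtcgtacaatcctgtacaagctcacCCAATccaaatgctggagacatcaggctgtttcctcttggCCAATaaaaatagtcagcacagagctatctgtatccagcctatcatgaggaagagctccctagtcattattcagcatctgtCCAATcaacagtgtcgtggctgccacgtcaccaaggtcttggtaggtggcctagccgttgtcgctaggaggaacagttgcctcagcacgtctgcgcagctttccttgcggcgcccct
CCAAT, searched on both strands, occurred 3 times, and 3.37% of the 32851 promoter sequences of this length in the RefSeq table held at least 3. None of these letters says whether a factor was bound.

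Further into the gene, the shared CpGs of the CpG island that spans the Kcnq1ot1 start (chr7:143294958-143296694) were more methylated in Tet/Tet ESCs than in R1 ESCs. The first 2 kb of the gene, a window chosen after seeing where CpGs were listed, held 18 shared CpGs in fragments between 932 and 1174 bp from the start. The main fragments, with CpGs in capitals, were as follows.
Kcnq1ot1 fragment 1, chr7:143295469-143295618: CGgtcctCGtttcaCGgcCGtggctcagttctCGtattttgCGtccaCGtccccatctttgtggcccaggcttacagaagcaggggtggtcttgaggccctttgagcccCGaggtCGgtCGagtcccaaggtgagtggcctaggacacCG
Kcnq1ot1 fragment 2, chr7:143295375-143295443: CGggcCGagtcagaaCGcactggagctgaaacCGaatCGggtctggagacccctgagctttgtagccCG
In the 148-bp fragment the mean of 10 CpGs was 4.16% in R1 and 21.9% in Tet/Tet ESCs, and 17.4% in neurons. In the 67-bp fragment 5 CpGs averaged 11.0%, 22.7% and 33.9%. Over all 18 the means were 7.63% ± 5.41, 22.9% ± 3.27 and 23.8% ± 9.47.

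At each of the 18 CpGs both Tet/Tet ESCs and R1 neurons were above R1 ESCs. The Tet/Tet difference averaged 15.3 points (SD 3.43, range 8.86 to 20.2) and the neuron difference 16.2 points (SD 5.80, range 9.48 to 25.5). R1 neurons and Tet/Tet ESCs were 0.906 points apart on average, with R1 neurons higher at 8 CpGs and lower at 10. All 3 libraries were below the 50% of a region methylated on 1 of 2 copies. Over its own 60 listed CpGs in these 2 kb, R1 neurons averaged 15.4%, with 26 at 0%.

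The rest of the Kcnq1ot1 gene behaved differently. Beyond the first 2 kb, 21 shared CpGs averaged 40.2% ± 35.5 in R1 and 45.7% ± 33.0 in Tet/Tet ESCs, a difference of 5.50 points with an SD of 31.5. R1 neurons were at 90.3% ± 12.0 there. The body as a whole, 39 CpGs, was at 25.2% in R1 and 35.2% in Tet/Tet ESCs, and 59.6% in neurons, so that the Tet/Tet difference of 10.0 points barely reached the 10-point line. It did not reach it with each fragment counted once (3.74 points) or with islands left out (8.15 points), and it was −2.38 points over each library's own CpGs. The 2 shared CpGs upstream of the start were at 100% in R1 and 83.9% on average in Tet/Tet ESCs, and 85.9% in neurons.

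Cdkn1c (ENSMUSG00000037664.13, chr7:143458339-143461050), which Kcnq1ot1 silences on the paternal copy, was nearly free of methylation on average in both ESC libraries. Its 24 promoter CpGs averaged 3.50% ± 6.47 in R1 and 1.07% ± 4.11 in Tet/Tet ESCs, and 8.75% ± 15.3 in neurons. The 9 CpGs of the 544-bp fragment just before the start were at 0% in all 3 libraries. The 124 body CpGs averaged 6.10% ± 14.8, 4.22% ± 9.93 and 21.8% ± 19.3. In Tet/Tet ESCs 73 of them were lower and 27 higher than in R1 ESCs, by −1.88 points on average. In R1 neurons 120 of the 124 were higher than in R1 ESCs, by 15.7 points on average (SD 15.0). Single body CpGs stood well above these means, with 7 of the 124 between 25% and 75% in each ESC library. The CpG at chr7:143459286 was at 49.2% in R1 and 45.2% in Tet/Tet ESCs, and 41.8% in neurons. That at chr7:143459335 was at 42.1% in both ESC libraries and 52.0% in neurons.

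Within Cdkn1c, the upstream stretch differed most between R1 neurons and ESCs. Its 26 shared CpGs averaged 6.99% ± 6.91 in R1 and 4.58% ± 4.94 in Tet/Tet ESCs, and 51.2% ± 20.6 in neurons, where each CpG was higher than in R1 ESCs. This stretch holds 2 CpG islands. The island 2607 to 2962 bp upstream was at 3.81% in R1 and 4.07% in Tet/Tet ESCs, and 54.6% in neurons, over 6 CpGs, and the island 3699 to 4537 bp upstream at 6.27%, 4.56% and 48.7% over 14. The island over the start and most of the gene stayed lower, at 19.4% in R1 neurons over 147 CpGs. A neuron difference of 44.2 points, as upstream of Cdkn1c, was reached by 39.1% of 11764 upstream stretches with at least 5 CpGs, of which 81% were at least 10 points higher in R1 neurons.

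Within a Cdkn1c exon, 3 consecutive 24-bp MspI fragments, units 2 to 4 below, had higher levels in the ESC libraries than the fragments beside them. They are shown with unit 5 because they resemble each other, in order along the gene, with CpGs in capitals.
Cdkn1c repeat unit 2, chr7:143459979-143460004: CGgtCGaggagaaggaCGaggagcCG
Cdkn1c repeat unit 3, chr7:143459955-143459980: CGgaggaggagcagggCGCGgagcCG
Cdkn1c repeat unit 4, chr7:143459931-143459956: CGgtCGaggagcagggtgCGgagcCG
Cdkn1c repeat unit 5, chr7:143459907-143459932: CGgtCGaggagcagaatggggagcCG
Any pair of these 26-base stretches was identical at 20 to 23 positions. Unit 2 was at 26.7% in R1 and 13.3% in Tet/Tet ESCs, and unit 3 at 27.8% and 16.7%. Unit 4 was at 33.3% in R1 and 22.2% in Tet/Tet ESCs, and 46.1% in neurons, while unit 5 beside it was at 3.38%, 1.85% and 29.0%. In units 2 and 4 the ESC means rest on 1 CpG each, the one at chr7:143459979 (80% and 40%) and the one at chr7:143459931 (100% and 66.7%), while the other 2 CpGs of each unit were at 0% in both ESC libraries. The part that read assignment among such similar fragments had in these levels was not tested.

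Phlda2 (ENSMUSG00000010760.5, chr7:143501545-143503150) was also almost unmethylated in ESCs. Its 7 promoter CpGs averaged 2.11% ± 2.35 in R1 and 2.53% ± 2.03 in Tet/Tet ESCs, and 19.6% ± 20.6 in neurons. The 44 body CpGs averaged 2.07% ± 3.08, 1.75% ± 3.49 and 12.0% ± 11.0. Among the 7 shared promoter CpGs, the highest value in R1 neurons, 64.9%, was at the one farthest upstream, outside the CpG island. The 6 inside the island averaged 12.1%. Over all promoter CpGs that R1 neurons listed, the highest value was 100%. The 4 shared upstream CpGs were at 11.3%, 13.7% and 51.0% on average, with single values from 5.71% to 92.0% in R1 neurons. For Cdkn1c and Phlda2, promoters and bodies, the Tet/Tet mean minus the R1 mean of the ESCs lay between −2.43 and 0.419 points.

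**Figure D3:**
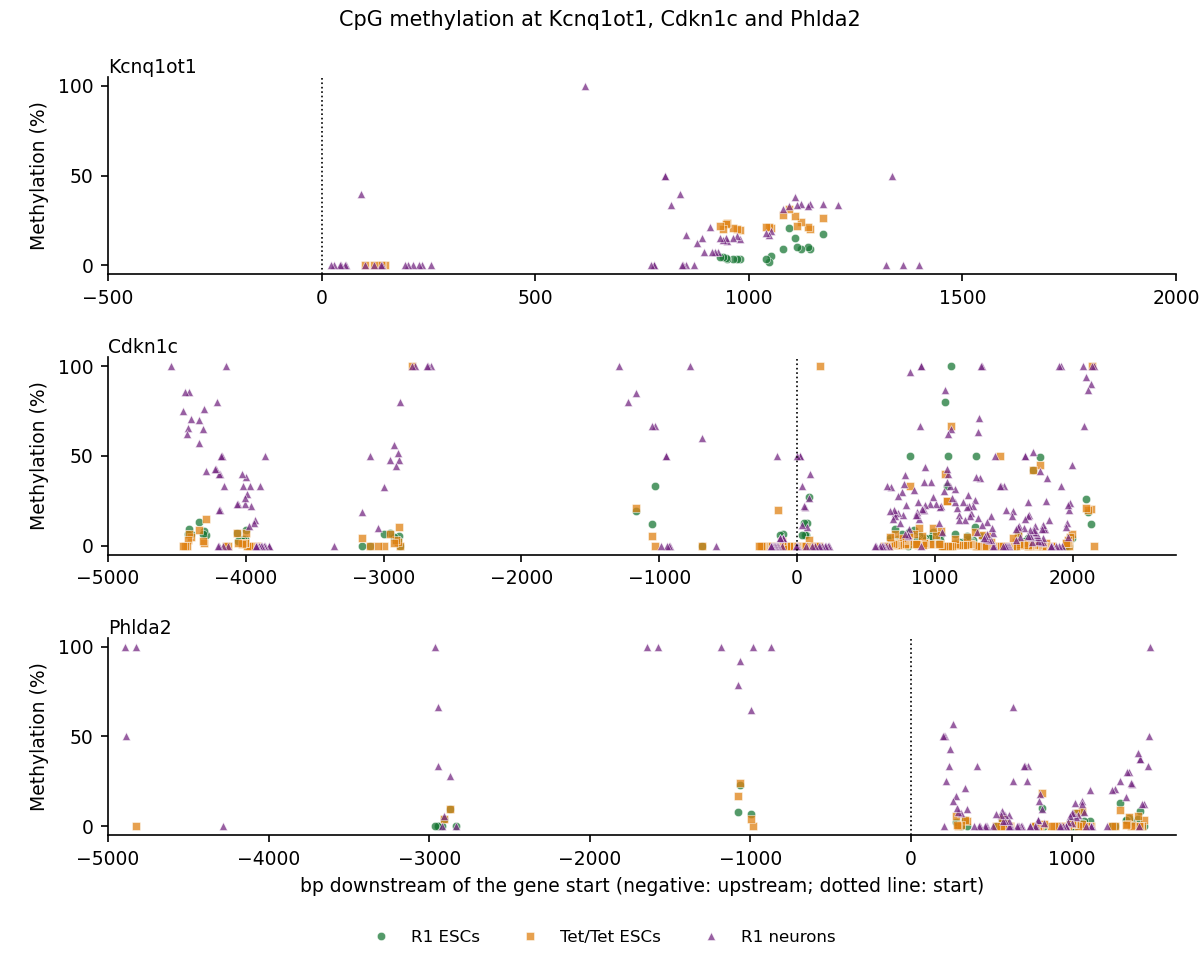
Methylation (%) of each listed CpG against its distance in bp downstream of the start of Kcnq1ot1 (first 2 kb), Cdkn1c and Phlda2, with upstream distances negative, with circles for R1 ESCs, squares for Tet/Tet ESCs and triangles for neurons. At Kcnq1ot1, near 1 kb, Tet/Tet ESCs and R1 neurons lie above R1 ESCs, and upstream of Cdkn1c and Phlda2 mainly R1 neurons leave the baseline.

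Igf2 (ENSMUSG00000048583.16, chr7:142650766-142666816) had no shared CpG in the window of its outermost start, where R1 neurons alone listed 6 CpGs with a mean of 96.7%. Over windows around all of its annotated transcript starts, 127 shared CpGs differed by −2.23 points between Tet/Tet and R1 ESCs and by 6.93 points between neurons and R1 ESCs. Its 205 body CpGs averaged 9.83% ± 19.8 in R1 and 7.68% ± 16.2 in Tet/Tet ESCs, and 22.0% ± 34.5 in neurons. These means cover separate classes of CpG. The 178 CpGs in islands averaged 5.30%, 4.22% and 13.2%, and the 27 outside islands 39.7%, 30.5% and 80.5%.

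The 3 largest Igf2 islands averaged below 10% in every library. The island 6843 to 8593 bp into the gene, over the first exon of transcript ENSMUST00000121128.7, was at 3.53% in R1 and 2.04% in Tet/Tet ESCs, and 4.68% in neurons over 92 CpGs. The island 5330 to 6640 bp into the gene, over the start of ENSMUST00000105936.7, was at 1.52%, 1.84% and 2.51% over 30 CpGs. The intronic island 2275 to 3035 bp into the gene was at 3.69%, 2.61% and 9.15% over 40 CpGs.

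The 3 islands towards the end of the gene, each overlapping an annotated exon, had another pattern. The island 12317 to 12599 bp into the gene was at 18.6% in R1 and 42.5% in Tet/Tet ESCs, and 97.6% in neurons, over 6 CpGs that were all higher in Tet/Tet ESCs. The next, 12689 to 13065 bp into the gene, was at 32.1%, 16.7% and 87.2% over 7 CpGs. There 1 CpG, 12870 bp into the gene, was at 100% in R1 and 16.7% in Tet/Tet ESCs and carried much of the difference between them, and of the other 6 CpGs 2 were higher and 4 were lower in Tet/Tet ESCs. The island 10949 to 11257 bp into the gene was at 29.9%, 10.3% and 92.0% over 3 CpGs. R1 neurons averaged above both ESC libraries at all 3.

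Upstream of Igf2 methylation was high in all libraries. The 16 shared CpGs averaged 75.3% ± 27.0 in R1 and 77.6% ± 23.1 in Tet/Tet ESCs, and 94.0% ± 11.0 in neurons. The island 2649 to 3187 bp before the start held 13 of them, at 85.7%, 84.7% and 97.0%. In both ESC libraries it was the most methylated of the member islands with at least 5 shared CpGs.

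**Figure D4:**
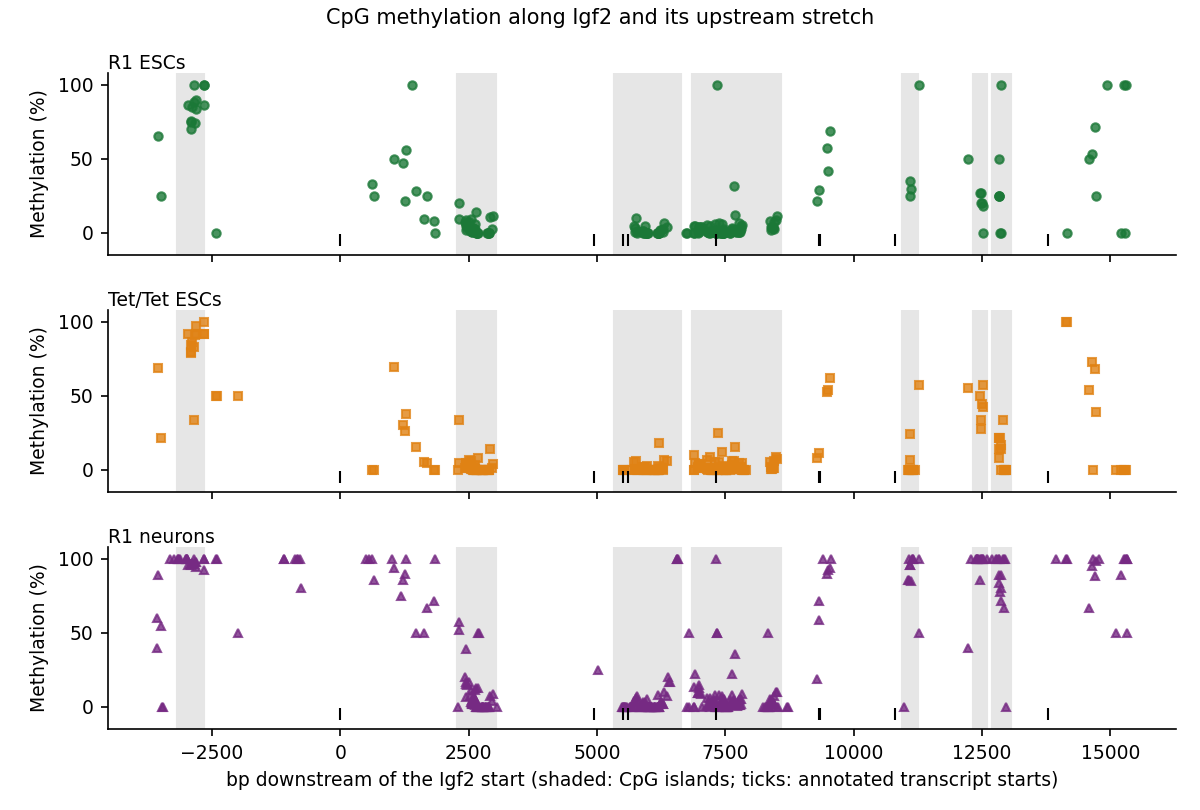
Methylation (%) of each listed CpG against its distance in bp downstream of the outermost Igf2 start in 3 panels, R1 ESCs on top, then Tet/Tet ESCs, then neurons, with CpG islands shaded and annotated transcript starts as ticks. The 3 islands between 2275 and 8593 bp average 1.52% to 9.15% over shared CpGs, with some single CpGs far above that, up to 100%, while those between 10949 and 13065 bp are at 87.2% to 97.6% on average in neurons.

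Most members were more methylated in R1 neurons than in R1 ESCs, as were most genes. Of the 8 member segments with at least 5 CpGs, 6 were at least 10 points higher and 0 lower, namely the promoters of H19 and Phlda2 and the bodies of H19, Igf2, Kcnq1ot1 and Cdkn1c. Over all genes 34.8% of promoters and 88.8% of bodies were at least 10 points higher, and 0.163% and 0.0568% at least 10 points lower, so the members' count is not set apart from this background. Single calls depended on the processing: the Phlda2 promoter was at 8.54 points by medians and at 7.50 with a window of 1000 bp on either side of the start, and the Igf2 body at 2.73 by medians. The Cdkn1c promoter, at 5.25 points, was at 16.5 with each fragment counted once, and the Phlda2 body at 12.6. The median difference was 16.6 points over the member segments, 2.95 points over all promoters and 35.2 points over all bodies. Bodies of Igf2 (12.2 points), Cdkn1c (15.7) and Phlda2 (9.92) were in the lower part of that range, since 86.5%, 82.7% and 88.9% of bodies had a difference at least as large. Over single CpGs, 46.7% of the 514 at the members and 53.3% of the 1957220 shared CpGs of the genome were at least 10 points higher, and 2.33% and 2.13% at least 10 points lower. In the ESC comparison 10.5% of the member CpGs were at least 10 points higher and 7.59% at least 10 points lower, against 15.6% and 10.8% over the genome. The mean over all shared CpGs of the genome was 27.1% in R1 and 28.4% in Tet/Tet ESCs, and 53.7% in neurons.

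**Figure D5:**
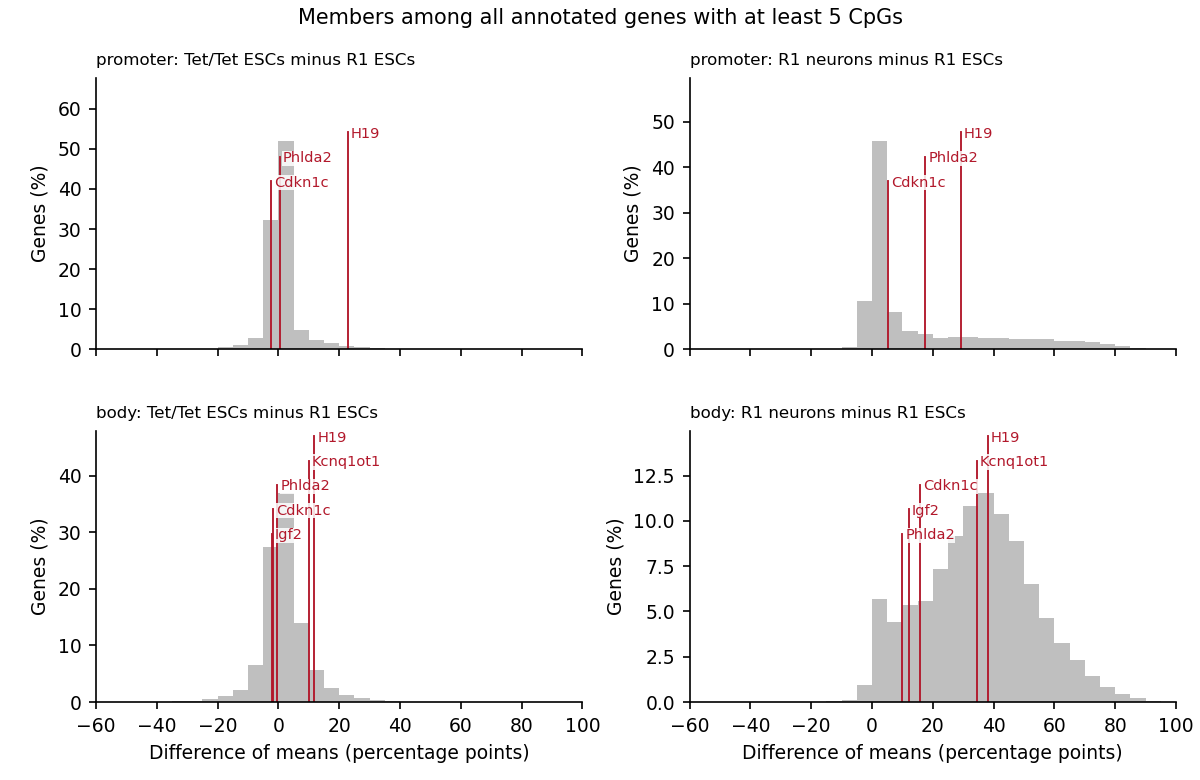
Distribution over all annotated genes with at least 5 shared CpGs (grey bars, % of genes per 5 points) of the difference in mean methylation in percentage points, for promoters (top) and bodies (bottom), Tet/Tet ESCs minus R1 ESCs (left) and R1 neurons minus R1 ESCs (right), with members as red lines. The H19 promoter lies at 22.7 points in the right tail of the ESC comparison, and the member bodies lie at 9.92 to 38.1 points in the neuron comparison.

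Other genes of the same domains were compared as a list of 20 flanking and domain genes. Of the 11 whose promoters had enough CpGs, 1 was at least 10 points higher in Tet/Tet ESCs. That was Th, the gene of the enzyme that makes the dopamine precursor, at 75.6% in R1 and 90.3% in Tet/Tet ESCs. This rests on 7 CpGs around the outermost annotated start, and other starts of Th were not examined. No promoter of the list was at least 10 points lower, and the list's median difference was 0.458 points. Over all genes, 5.72% of promoters were at least 10 points higher and 2.24% at least 10 points lower. Of 20 bodies, Tnfrsf22 was 46.2 points higher over 6 CpGs, and Ins2, an insulin gene, and Tnfrsf26 differed from R1 ESCs by −21.7 and −14.2 points. Of the bodies of all genes, 10.7% were at least 10 points higher and 4.28% at least 10 points lower. In R1 neurons all 20 bodies were at least 10 points higher than in R1 ESCs (12.1 to 87.9 points). So were 4 of the 11 promoters, those of Mrpl23, Th, Tnfrsf23 and Osbpl5. The shares over all genes were 88.8% of bodies and 34.8% of promoters.

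The Kcnq1ot1 start carries a maternal germline mark, and 9 other imprinted genes with such a mark were set beside it. Their promoter windows were taken at the outermost annotated start, and whether each holds the mark was not checked. Of these, 7 had enough shared CpGs, with means of 2.39% to 28.4% in R1 ESCs (median 12.6%), 1.26% to 24.3% in Tet/Tet ESCs (median 8.15%), and in neurons 11.6% to 78.3% (median 45.3%). Zrsr1 was 17.9 points higher in Tet/Tet ESCs, and Plagl1 and Airn differed from R1 ESCs by −16.0 and −14.4 points, 3 genes named after their values were seen. Over all genes, 5.72% of promoters were at least 10 points higher in Tet/Tet ESCs and 2.24% at least 10 points lower. The median difference between the ESC libraries was −6.81 points over the 7 promoters of the list. Over the bodies of the 9 genes it was 4.90 points. Beside 10.7% and 4.28% of all bodies, 2 of these were at least 10 points higher in Tet/Tet ESCs and 0 lower. Those were Mest, which had no shared promoter CpG and went from 16.6% in R1 to 54.2% in Tet/Tet ESCs, and Zrsr1, at 16.4 points, both also named after their values were seen. The shared CpGs in the first 2 kb of Kcnq1ot1 lie inside the gene and so match neither window exactly. Their levels in R1 ESCs (7.63%), Tet/Tet ESCs (22.9%) and neurons (23.8%) each lay within the range of these promoters in that library. The neuron range is wide, with Plagl1 at 78.3% and Grb10 at 77.4% at its top. The Kcnq1ot1 window was also chosen after seeing where CpGs were listed. Lying within these ranges therefore does not show that Kcnq1ot1 resembles these promoters.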

How the data were processed

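MspI-based RRBS was done on ESC and neuron DNA of the R1 and Tet/Tet lines (1 library per line and cell type). The authors deposited the percent methylation of each listed CpG as a bedGraph file, with no read counts, so the depth behind a value is unknown and no interval or test was computed. The submitters' processing notes name FastQC 0.11.8, Trim Galore 0.6.4, Bismark 0.19.0 and MethylDackel 0.3.0; the study used mm10. Because RRBS reads start at MspI sites, CpGs in short fragments dominate. Conversion is not known per CpG, and bisulfite reads do not separate 5-methylcytosine from 5-hydroxymethylcytosine.

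Percentages were read as deposited with Python 3.11.15, pandas 2.3.3 and numpy 2.4.6, and joined by position. Promoters spanned 1000 bp before to 500 bp after the outermost GENCODE M21 start, bodies the rest of the gene, and upstream stretches 5000 to 1000 bp before the start. Unweighted means and SDs over CpGs listed in the 3 libraries used were compared. Islands were called from the sequence (over 200 bp, GC at least 50%, observed to expected CpG above 0.6). The calculation was tested on simulated data with independent CpGs and a set read depth. That test does not cover neighbouring CpGs of the same fragment or the unknown depth here. Named genes were the members, listed domain genes at least 10 points apart, and, given as a range, promoters of 9 genes with a maternal mark. The members and lists were chosen with earlier results of these data known. Sequences came from the mm10 genome and from RefSeq's promoter table (GRCm38.p6), of which the Kcnq1ot1 entry was printed. A planned exact test on reads was not made, since the tables hold percentages only. Alternatives were other sets and weightings of CpGs, medians, other promoter windows and a 25-point line.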

Additional observations from a re-analysis of the deposited data

How the results depend on the processing

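Of 138 alternative values, 103 stayed within 10 points of the reported one and on its side of the 10-point line (counts: within 1.5 times). Another 34 did not, and 1 reversed. Only a change of sign in a reported difference of at least 10 points was counted as a reversal. Some smaller differences also changed sign. The Cdkn1c promoter, at −2.43 points for Tet/Tet ESCs minus R1 ESCs, was at 2.58 with each fragment counted once. The cause of the changes was not tested. Many alternatives reused the same CpGs, and some left the set of CpGs unchanged, so these counts are no independent check. For Tet/Tet ESCs minus R1 ESCs, Kcnq1ot1 was at 17.6 points within 1000 bp on either side of the start, against 15.3 over the first 2 kb. The H19 promoter was at 35.0 over each library's own CpGs, 38.5 in MspI fragments of 40 to 220 bp, 35.3 by medians and 2.92 without islands. The Igf2 promoter was at −29.2 in the 1000-bp window (2 CpGs), against −2.23 over all transcript starts. The H19 body was at 3.91 in MspI fragments and 27.1 by medians. The Kcnq1ot1 body reversed to −2.38 over own CpGs and was at 3.74 with fragments counted once, 8.15 without islands and 8.38 with the 1000-bp window. At a 25-point line 0 of 8 segments were apart, against 3.

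For R1 neurons minus R1 ESCs, Kcnq1ot1 was at 11.0 in the 1000-bp window, against 16.2 over the first 2 kb. The H19 promoter was at 44.8 over own CpGs, 55.3 in MspI fragments and 47.4 by medians. The Igf2 promoter was at 63.7 in the 1000-bp window, against 6.93 over all starts. Cdkn1c's promoter was at 16.5 with fragments counted once, 60 without islands (1 CpG), 13.4 in the 1000-bp window and 14.0 over all starts. Phlda2's promoter was at 8.54 by medians, 58.2 without islands (1 CpG), 7.50 in the 1000-bp window and 7.03 over all starts. The Igf2 body was at 7.06 in MspI fragments, 2.73 by medians and 40.8 without islands. The Kcnq1ot1 body was at 22.6 in MspI fragments, 70.0 by medians and 54.5 without islands. The Phlda2 body was at 10.6 over own CpGs, 12.7 in MspI fragments, 12.6 with fragments counted once and 14.9 with the 1000-bp window. At a 25-point line 3 of 8 segments were apart, against 6.

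The H19 upstream difference kept its direction and side of the line in every alternative run, at 21.8 to 28.6 points for Tet/Tet ESCs and 47.7 to 64.0 for R1 neurons. These alternatives largely reused the same 4 CpGs, and leaving out islands removed none of them, so they are no independent check. No paired analysis was possible because each condition had 1 library and no test was made. The tables give no depth, so a difference at a single CpG, or a level of exactly 0% or 100%, carries an unknown counting error. Few CpGs of the H19 control region and none at its CTCF core matches were listed in the ESC libraries. Leaving out a replicate was not possible. The promoter windows of Kcnq1ot1 and Igf2 held no shared CpG, so the other alternatives gave no value there.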
